A study of Homo sapiens with 21 samples.

Results

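The 10 genes of Wnt feedback and antagonism described here were followed through the differentiation of human iPSCs into cardiomyocytes (CMs) and in CMs without *UBE2B*: *NKD1*, *AXIN2*, *SP5*, *LEF1*, *NOTUM*, *DKK1*, *DKK4*, *SFRP1*, *SFRP2* and *SFRP5*. They were chosen by name, and every transcript listed for them in any of 6 tables of differential expression was taken. All 10 were listed at least once, among 11851 named genes in the series, through 22 of the 21537 listed transcripts. RNA was sequenced from wild-type PGP1 cells, an established human iPSC line, as iPSCs and at 4 later stages: M (mesoderm), CMes (cardiac mesoderm), CP, the cardiac progenitors, and lastly CM. Each of the 5 stages had 3 libraries. The other 6 libraries were CMs of the *UBE2B*-/- lines UBE2B-/-1 and UBE2B-/-2, with 3 libraries from each of the 2 lines. Both lines were made from PGP1 cells by separate CRISPR-Cas9 edits near the start of *UBE2B*, each grown from picked colonies, so a line stands for its own edit and its own founding cells. Differentiation began with CHIR99021, a GSK3 inhibitor that turns the Wnt pathway on, and IWP4, which blocks the release of Wnt ligands, was added later. Wild-type CMs were compared with mutant CMs from wells that beat, and beating cultures were selected with lactate, which favors cardiomyocytes. The paper reports that only a minority of mutant wells beat. More cells were plated for the mutants than for the wild type, so plating density and genotype cannot be told apart. Each replicate came from a plate that began differentiation at its own time.

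In the Wnt/β-catenin pathway, secreted Wnt ligands bind Frizzled receptors and the co-receptors LRP5 and LRP6, β-catenin escapes destruction, and it activates genes together with TCF/LEF transcription factors. Several of these genes encode brakes on the pathway, and some, such as *AXIN2* and *SP5*, are switched on by it. Transcripts of such targets are widely used as a readout of the pathway. The brakes act inside the cell (NKD1, AXIN2), at the target genes (SP5), on the ligands (NOTUM and the SFRP proteins) or on the co-receptors (DKK1, DKK4), whereas LEF1 is itself an activating TCF/LEF factor. Wnt signaling starts mesoderm in the primitive streak and must then drop for cardiac mesoderm to form heart muscle, which is why the protocol turns it on and then off.

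The tables hold no value per library. The level of a transcript in a group is therefore the geometric mean of its 3 libraries in estimated counts, recovered from the deposited effect and mean, and the spread between replicates is the residual SD of the fit on the log2 scale. Levels are given on the scale of the iPSC to M comparison, and levels of different genes are compared only per kilobase (kb) of transcript. Changes are log2 changes with their standard error (SE). A transcript was called when its q-value in the authors' Wald test was at most 0.05 and its effect reached a 1.79-fold change, which every listed transcript of these genes did. A transcript that is not listed at a transition did not pass that q-value, and its level there is known only where a neighboring table gives it. Where a group mean is below 3 estimated counts, the size of a change into or out of it depends on the pseudocount of 0.5, and the common scale is less exact. Depth per library is unknown here. In bulk RNA, fewer cells of a type and less RNA per cell cannot be told apart. Kallisto divides reads that fit several transcripts of a gene among them, so values of overlapping transcripts of *NKD1*, *AXIN2*, *LEF1*, *DKK1* and *SFRP1* are less certain than those of the genes listed through 1 transcript.

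Stage markers followed the labels in part. From iPSC to M, 4 of 5 mesoderm markers rose (*TBXT*, *MIXL1*, *EOMES* and *NODAL*), while 0 of 5 iPSC markers was called lower. From M to CMes, 4 of 5 cardiac mesoderm markers rose, *TBXT* and *NODAL* fell and *EOMES* rose through ENST00000449599.3, which was at 0 at M and at 34.0 estimated counts at CMes. From CMes to CP, 4 of 5 progenitor markers rose. Of the cardiac mesoderm list, *HAND1* and *PDGFRA* rose further, while *MESP1* and *MESP2* fell. From CP to CM, 5 of 5 cardiomyocyte markers and again 4 of 5 progenitor markers rose. *UBE2B* itself was listed in the mutants only through ENST00000499038.2, lower in UBE2B-/-1 with a log2 change of -1.91 (SE 0.53), and was not listed for UBE2B-/-2. The edit need not lower the amount of transcript, so this does not check the label of either line.

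From iPSC to M, 7 of the 10 genes rose (*NKD1*, *AXIN2*, *SP5*, *LEF1*, *NOTUM*, *DKK1* and *DKK4*), *SFRP1* fell, and *SFRP2* and *SFRP5* were not listed. These calls rested on 18 transcripts, 16 higher and 2 lower, while 2.87% of the 68446 transcripts tested were called 1.24% higher and 1.62% lower. From M to CMes, 7 genes were called over 14 transcripts. *NKD1*, *AXIN2*, *SP5*, *DKK4* and *SFRP2* fell and *SFRP1* and *SFRP5* rose, against 6.46% of all tested transcripts, 3.81% higher and 2.65% lower. From CMes to CP, *LEF1*, *DKK1* and *SFRP5* rose and *SP5*, *NOTUM*, *SFRP1* and *SFRP2* fell, over 9 transcripts, against 6.43% of all tested, 3.80% higher and 2.63% lower. From CP to CM, *NKD1*, *SP5*, *LEF1* and *NOTUM* fell and *SFRP1* rose, over 7 transcripts, against 15.2% of all tested, 8.25% higher and 6.99% lower. How many transcripts of these genes were tested is unknown, so their shares cannot be set beside those of all transcripts. Adjacent transitions share the libraries of a stage. Markers of other cells moved at the same transitions. From M to CMes, 3 of 5 endoderm and 4 of 5 stromal markers rose. From CMes to CP, 3 of 5 endoderm markers rose and *SOX17* fell, and 3 of 5 stromal and 3 of 4 epicardial markers rose. On the scale of that fit, *COL3A1* went from 51.9 to 29257 estimated counts and *LUM* from 31.7 to 5873, and *TTR* reached 16366. From CP to CM, 4 of 5 endoderm and 2 of 4 epicardial markers fell, and 4 of 4 smooth muscle markers rose. Of 5 stromal markers, *COL3A1* and *LUM* then fell, *POSTN* rose, and *COL1A1* was called in both directions through different transcripts. The part of these cells in the changes of the 10 genes was not tested. These calls depend on the normal distribution that the Wald test assumes. With a t distribution on 4 degrees of freedom and the standard errors of Sleuth, 0 of the 10 genes was called at each of the 4 transitions. Those degrees of freedom come from the libraries alone and do not count what Sleuth shares between transcripts. The unadjusted p of the listed transcripts of these genes then ran up to 0.043. Over all transcripts the counts were 0, 0, 1 and 561 in stage order.

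**Figure D1:**
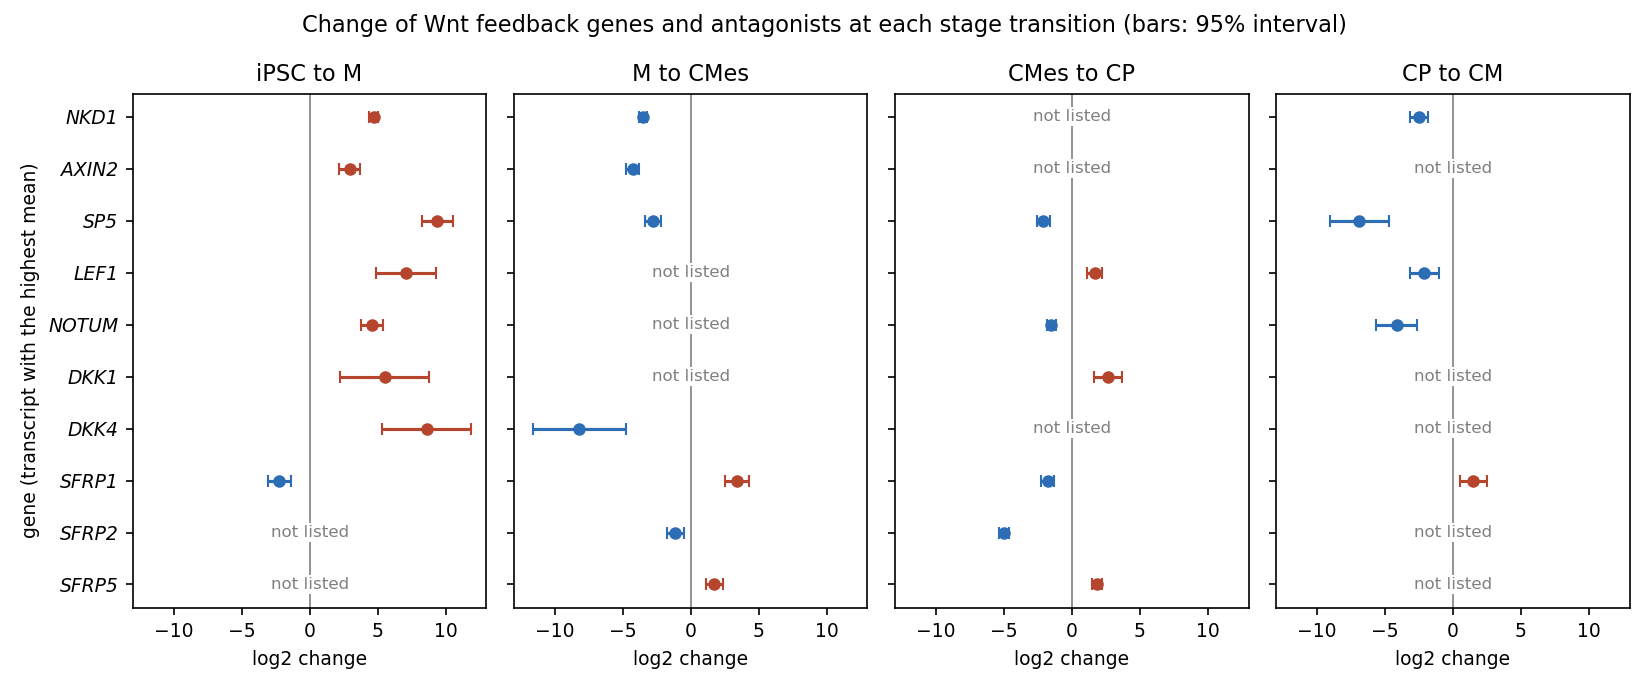
Log2 change of each gene at the 4 stage transitions, through its listed transcript with the highest mean. Points are the fitted changes, bars the 95% interval, red higher and blue lower at the later stage. *NKD1*, *AXIN2* and *SP5* lie right of 0 from iPSC to M and left of 0 from M to CMes, and *SFRP1* changes side at every transition. Positions depend on the pseudocount where a group mean is below 3 estimated counts. These are *LEF1*, *DKK1* and *DKK4* from iPSC to M, *DKK4* from M to CMes and *SP5* from CP to CM.

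*NKD1* encodes a cytoplasmic protein that binds Dishevelled and dampens Wnt signaling. Its gene spans 50548396 to 50649249 of chromosome 16 (GRCh38). Its full-length transcript ENST00000268459.6 stood at 272 estimated counts in iPSCs, 7084 at M, 619 at CMes, 409 at CP and 71.3 at CM. The M level stood above every other stage and the CM level below every other, with iPSC, CP and CMes between them. The change was 4.70 (SE 0.15) from iPSC to M, with a residual SD of 0.19, and it had the smallest p of all listed transcripts there. It then changed by -3.52 (SE 0.16) from M to CMes and by -2.51 (SE 0.33) from CP to CM. From CMes to CP it was not listed, and its levels give a change of -0.60. The remaining listed *NKD1* transcripts moved with it. ENST00000566396.1, which retains an intron, had a mean of 0.207 estimated counts in iPSCs, 128 at M and 1.53 at CMes. ENST00000564336.1, which has no defined coding sequence, had 0.534, 42.0 and 0.351.

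*AXIN2* encodes a scaffold of the complex that destroys β-catenin and is a direct target of the pathway. The gene lies on chromosome 17 from 65528563 to 65561648. ENST00000307078.10 held 442 estimated counts in iPSCs, 3385 at M and 174 at CMes, with changes of 2.94 (SE 0.38) and -4.28 (SE 0.26). The CMes level was thus under the iPSC level. Of all 1551 transcripts listed both from iPSC to M and from M to CMes, 45.8% rose and then fell, and 38.7% fell and then rose. All 5 *AXIN2* transcripts listed at these transitions rose and then fell. ENST00000618960.4, the next most abundant, went from 230 to 1214 and back to 145 estimated counts. ENST00000611991.1 was at 0 in every iPSC and every CMes library and at 41.5 at M, at least 13.8-fold higher than iPSCs against a floor of 3 counts. No *AXIN2* transcript was listed from CMes to CP or from CP to CM.

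**Figure D2:**
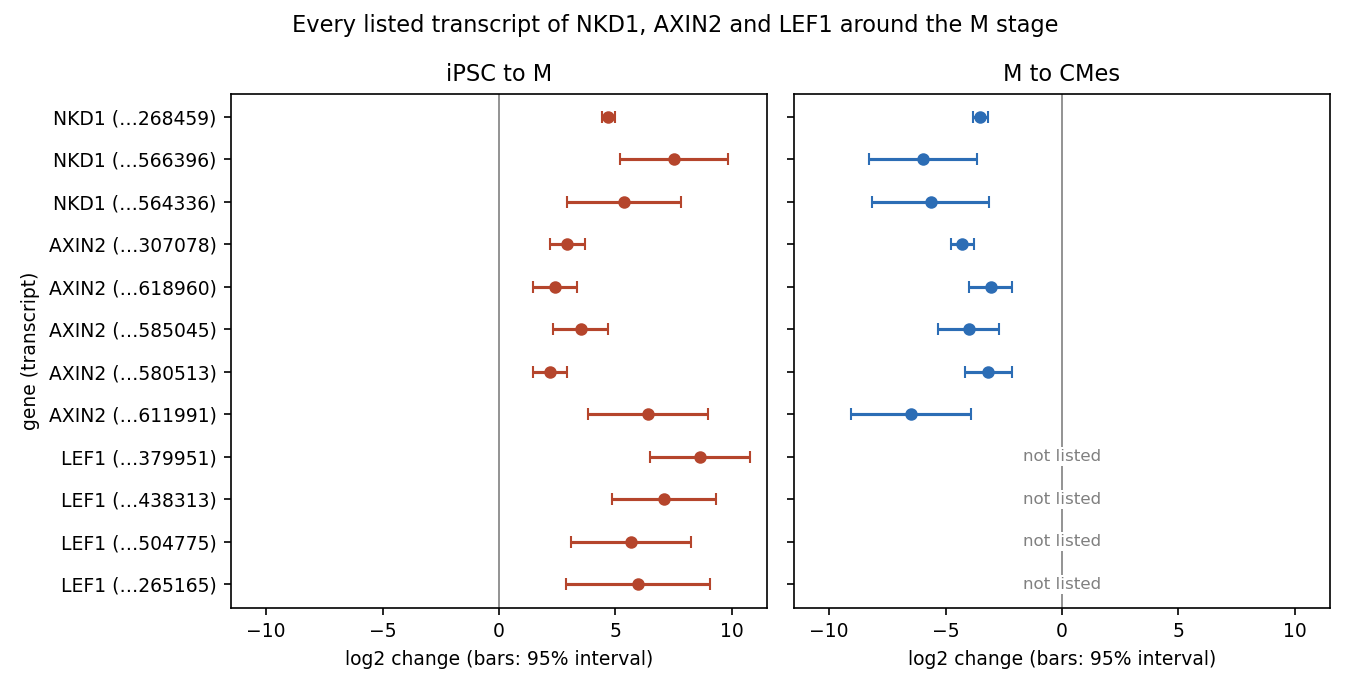
Log2 change of every listed transcript of *NKD1*, *AXIN2* and *LEF1* from iPSC to M and from M to CMes. Bars are the 95% interval and transcripts are named by the last digits of their identifier. All *NKD1* and *AXIN2* transcripts shown lie right of 0 and then left of 0, and no *LEF1* transcript was listed from M to CMes. The position of ENST00000611991.1 depends on the pseudocount, since it was at 0 in iPSCs and at CMes. The same holds for ENST00000566396.1 and ENST00000564336.1 of *NKD1* and for all *LEF1* transcripts, which were below 3 estimated counts in iPSCs.

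*SP5* encodes a zinc finger transcription factor that is switched on by β-catenin and competes with activating SP factors at Wnt targets. The gene lies on chromosome 2 from 170715337 to 170718078 and was listed through ENST00000375281.3. Its level was 5.14 estimated counts in iPSCs, 3758 at M, 554 at CMes, 130 at CP and 0.61 at CM. It peaked at M and was lower at each later stage. The rise was 9.38 (SE 0.58), with an interval from 8.24 to 10.5, and ranked 3 by size among the 849 transcripts called higher. The later changes were -2.76 (SE 0.31), -2.08 (SE 0.26) and -6.88 (SE 1.10). The last one ends below 1 estimated count. Per kb, *SP5* stood at 1836 at M, *AXIN2* at 795 and *NKD1*, whose transcript is long, at 416.

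*LEF1* encodes a DNA-binding partner of β-catenin. It lies on chromosome 4 from 108047545 to 108168956, and 4 of its 21 annotated transcripts were listed. ENST00000438313.6 went from 0.578 estimated counts in iPSCs to 146 at M, 112 at CMes, 365 at CP and 84.9 at CM. Unlike *SP5*, its highest level was at CP. It rose by 7.09 (SE 1.13) into M and by 1.70 (SE 0.28) from CMes to CP, and fell by 2.10 (SE 0.55) on the log2 scale from CP to CM. From M to CMes it was not listed, with levels that give -0.38. ENST00000379951.6, a coding form longer than ENST00000438313.6, had 0.028 estimated counts in iPSCs, 211 at M, 525 at CP and 1.77 at CM. The fall of this form, -7.85 (SE 2.11), came with a residual SD of 2.59, so its replicates varied several-fold. ENST00000504775.5 and ENST00000265165.6 also rose from iPSC to M, to 79.1 and 69.0 estimated counts, and were listed nowhere else.

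*NOTUM* encodes a secreted enzyme that removes the lipid from Wnt ligands and so inactivates them. The gene lies on chromosome 17 from 81952507 to 81961840. ENST00000409678.8 stood at 10.4 estimated counts in iPSCs, 258 at M, 345 at CMes, 121 at CP and 6.44 at CM. It rose by 4.57 (SE 0.41) into M. From M to CMes it was not listed, and its levels give a change of 0.42. It then changed by -1.50 (SE 0.18) and by -4.13 (SE 0.77). *NKD1* and *AXIN2* were called lower a transition earlier, and that difference was not tested.

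DKK1 and DKK4 are secreted proteins that bind LRP5 and LRP6 and block canonical Wnt signaling. *DKK1* lies on chromosome 10 from 52314281 to 52318042. Its coding transcript ENST00000373970.4 was first listed from CMes to CP, with 15.5 and 101 estimated counts and a change of 2.67 (SE 0.54). At CM it stood at 116, a change of 0.19 from CP that was not listed. The rise of the gene into M rested on ENST00000476752.1 alone, a transcript with no defined coding sequence. It went from 0.301 to 36.6 estimated counts, a change of 5.53 (SE 1.67) with a residual SD of 2.04. At a q-value of at most 0.01 this call was lost, and likewise with a limit of 10 estimated counts on the geometric mean over both stages. The same transcript rose again from CMes to CP, from 1.94 to 47.3. *DKK4*, on chromosome 8 from 42374063 to 42377229, was at 0 in every iPSC library and at 196 estimated counts at M. That is at least 65.4-fold higher against a floor of 3 counts. At CMes it had dropped to 0.172, a change of -8.19 (SE 1.75), and it was not listed later. Its call into M was also lost under the limit of 10 estimated counts. Its residual SD of 2.04 from iPSC to M shows that its M libraries differed several-fold.

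The SFRP proteins carry a Frizzled-like domain and bind Wnt ligands outside the cell. *SFRP1* lies on chromosome 8 from 41261962 to 41309473 and, per kb, reached the highest level of any of the 10 genes. ENST00000220772.8 stood at 4066 estimated counts in iPSCs, 863 at M, 8961 at CMes, 2613 at CP and 7320 at CM. It was low where *NKD1*, *AXIN2* and *SP5* were high. Its changes were -2.24 (SE 0.44), 3.37 (SE 0.45), -1.78 (SE 0.25) and 1.49 (SE 0.51), so its direction turned at each transition. The last call was lost at a q-value of at most 0.01, which the gene still passed through its shorter form. The shorter coding transcript ENST00000379845.3 did the same, with 2289, 401, 4959, 1190 and 4325. Per kb, the longer form held 2007 at CMes, against 650 for *SFRP2* and 90.1 for *SFRP5*. The levels of *SFRP1* at CMes and CM differed by less than its residual SD of 0.62 at CM.

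*SFRP2*, on chromosome 4 from 153780591 to 153789083, fell from M to CMes, where *SFRP1* rose. Both genes fell from CMes to CP. ENST00000274063.5 had 2824 estimated counts at M, 1297 at CMes, 40.5 at CP and 52.4 at CM. Its changes were -1.12 (SE 0.31) and -4.98 (SE 0.19), and the latter ranked 2 by z among the 1877 transcripts called lower from CMes to CP. Its residual SD there was 0.14. *SFRP5*, on chromosome 10 from 97766751 to 97771999, rose at both transitions where it was listed. ENST00000266066.4 had 50.2 estimated counts at M, 170 at CMes, 609 at CP and 774 at CM. The rises were 1.75 (SE 0.33) and 1.84 (SE 0.18), and the step from CP to CM, 0.35 from the levels, was not listed. The order of *SFRP2* and *SFRP5* turned between M and CP. Per kb, *SFRP2* stood at 1415 and *SFRP5* at 26.7 at M, and *SFRP2* at 20.3 and *SFRP5* at 324 at CP.

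**Figure D3:**
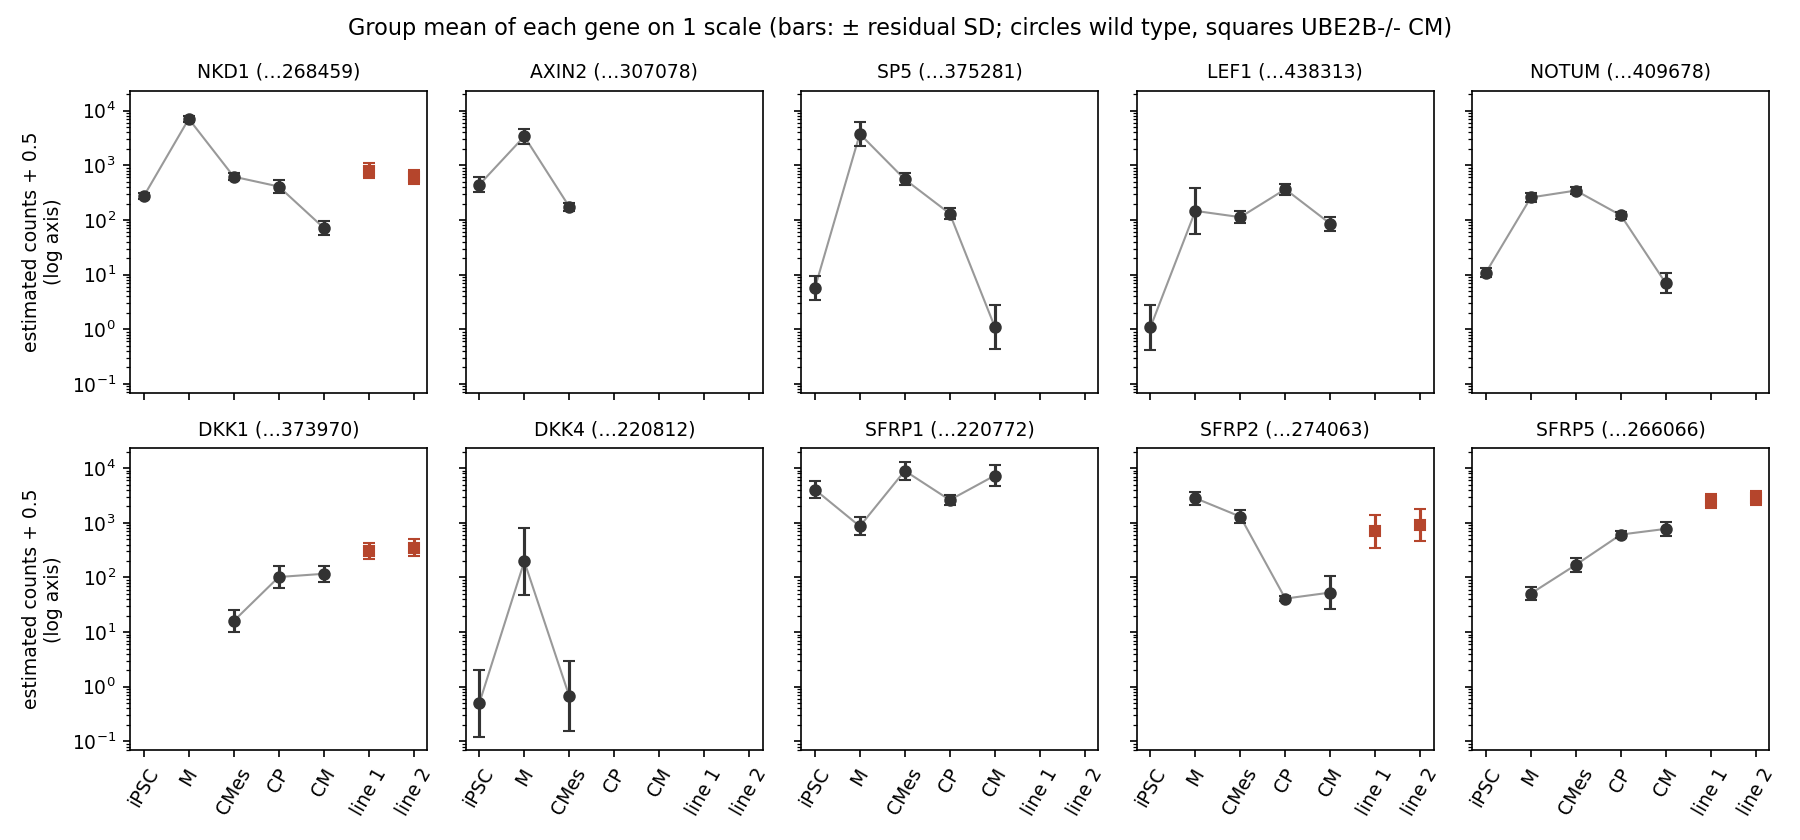
Level of each gene in estimated counts plus 0.5, on a log axis, for the 5 wild-type stages (circles) and the *UBE2B*-/- lines (squares), through 1 transcript per gene. Bars are plus and minus the residual SD, and a missing point means that no table gives the level. *NKD1*, *AXIN2*, *SP5* and *DKK4* are highest at M, *LEF1* at CP, and *SFRP5* has its highest points in the mutant lines.

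The sequence before the start of *SP5*, the gene with the largest fitted rise from a level above 0, and of *DKK1* and *SFRP2* is shown because TCF/LEF factors bind a motif with the core CTTTGA. Promoters of *SP5*, *LEF1*, *DKK1*, *SFRP2* and *SFRP5*, 5 of the 10 genes, were read from RefSeq, and those of the other genes were not analysed here. For *LEF1* its start is not that of a listed transcript, so it is not shown. The 250 bases before the start were read from GRCh38.p14 at chr2:170715087-170715336 (plus strand) for *SP5*, chr10:52314031-52314280 (plus strand) for *DKK1* and chr4:153789084-153789333 (minus strand) for *SFRP2*. Capitals mark CTTTGA or, for the other strand, TCAAAG.
SP5: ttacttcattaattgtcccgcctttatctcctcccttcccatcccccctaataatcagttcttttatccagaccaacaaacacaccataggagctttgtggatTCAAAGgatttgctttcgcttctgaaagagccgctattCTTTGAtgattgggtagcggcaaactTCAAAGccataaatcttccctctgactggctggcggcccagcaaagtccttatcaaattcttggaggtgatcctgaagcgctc
DKK1: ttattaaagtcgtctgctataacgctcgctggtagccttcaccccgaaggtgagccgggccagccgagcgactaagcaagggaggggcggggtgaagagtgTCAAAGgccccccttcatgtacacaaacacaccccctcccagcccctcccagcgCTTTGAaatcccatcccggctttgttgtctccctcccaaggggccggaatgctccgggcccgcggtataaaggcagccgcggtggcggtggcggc
SFRP2: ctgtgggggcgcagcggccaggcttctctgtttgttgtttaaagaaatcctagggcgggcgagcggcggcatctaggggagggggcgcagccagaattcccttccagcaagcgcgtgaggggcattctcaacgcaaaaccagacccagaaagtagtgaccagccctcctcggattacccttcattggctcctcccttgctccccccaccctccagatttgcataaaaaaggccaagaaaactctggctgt
*SP5* held 3 matches, 147, 109 and 83 bases before the start. *DKK1* held 2, at 149 and 95 bases. *SFRP2*, *SFRP5* and the *LEF1* window held 0. Of 35116 promoters of the same length, 11.2% held at least 1 match, 0.977% at least 2 and 0.0655% at least 3. A match is a run of letters, and binding was not measured here.

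In CMs without *UBE2B*, these genes were higher or not listed, and none was called lower. In UBE2B-/-1, 7 of the 10 genes rose (*NKD1*, *AXIN2*, *SP5*, *LEF1*, *DKK1*, *SFRP2* and *SFRP5*) over 8 transcripts. Of all 65457 transcripts tested, 3.89% were called in that line 2.18% higher and 1.72% lower. In UBE2B-/-2, 6 rose, without *SP5*, over 7 transcripts, against 3.99% called, 2.46% higher and 1.53% lower. In all, 6 transcripts of 6 genes were called higher in both lines, against 1.52% of all tested, or 2.43% for either direction. The lines share their wild-type libraries, so their calls are not independent. *NOTUM*, *DKK4* and *SFRP1* were listed for neither. With a t distribution on 6 degrees of freedom, 0 of the genes and 0 of all transcripts were called in either line. At a q-value of at most 0.01, the 7 genes of UBE2B-/-1 became 4.

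*NKD1* was higher in both lines. ENST00000268459.6 stood at 71.3 estimated counts in wild-type CMs, 796 in UBE2B-/-1 and 611 in UBE2B-/-2. The changes were 3.47 (SE 0.37) and 3.09 (SE 0.37), and both lines lay above the wild-type CP level of 409. *AXIN2* was called through a pair of transcripts. ENST00000375702.5, a shorter coding form listed at no stage transition, had 0.26 estimated counts in wild-type CMs, 34.4 in UBE2B-/-1 and 64.3 in UBE2B-/-2. Its changes of 5.52 and 6.42 (SE 1.55 each) start below 1 count. ENST00000580513.1, 1 of the transcripts that rose into M and fell from M to CMes, was higher in UBE2B-/-1 by 3.62 (SE 1.11). It was not listed for UBE2B-/-2, where the variance columns give a change of 0.28 or 3.34. ENST00000307078.10, the most abundant form at M, was listed for neither line. For *SP5*, the change of 4.15 (SE 1.27) in UBE2B-/-1 rested on a mean of about 19.1 or 26.9 estimated counts in that line, on the scale of that fit. The variance columns leave a pair of solutions, and in UBE2B-/-2 they give a change of 1.35 or 2.81. With a limit of 10 estimated counts on the geometric mean over all libraries of the fit, the *SP5* call was lost.

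*LEF1* rose through ENST00000379951.6 by 6.97 and 7.45 (SE 1.82 each), from 1.77 estimated counts in wild-type CMs to 258 and 358. With a residual SD of 2.23, the replicates of these groups varied several-fold. ENST00000438313.6 was higher in UBE2B-/-2, by 1.84 (SE 0.55), and the variance columns give a change of 1.18 in UBE2B-/-1, where it was not listed. *DKK1*, through its coding transcript, went from 116 estimated counts to 305 and 352, changes of 1.39 and 1.60 (SE 0.40 each). Both lines stood above the wild-type levels at CMes, CP and CM. *SFRP2* went from 52.4 to 696 and 910, changes of 3.72 and 4.10 (SE 0.81 each). These levels lie between the wild-type levels at CMes and CP. *SFRP5* went from 774 to 2471 and 2888, changes of 1.67 and 1.90 (SE 0.35 each), above every wild-type stage read.

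**Figure D4:**
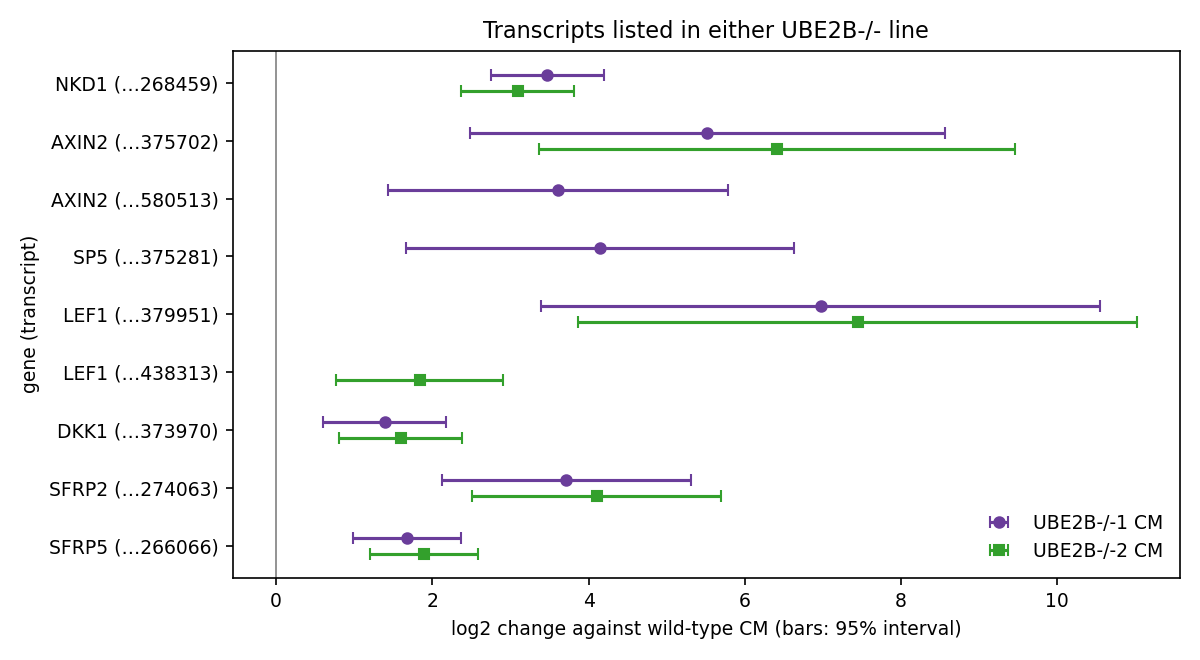
Log2 change against wild-type CMs of each transcript listed in either *UBE2B*-/- line, with the 95% interval. Circles are UBE2B-/-1 and squares UBE2B-/-2, and a missing mark means that the transcript was not listed for that line. All marks lie right of 0, and where both lines are listed their intervals overlap.

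Over both lines together, the 6 shared transcripts had mean changes of 3.28 (SE 0.32) for *NKD1*, 5.97 (SE 1.35) for *AXIN2*, 7.21 (SE 1.58) for *LEF1*, 1.49 (SE 0.35) for *DKK1*, 3.91 (SE 0.71) for *SFRP2* and 1.79 (SE 0.31) for *SFRP5*. The largest q-value of these means was 0.000978. Listing in both lines chose these transcripts, so the means describe them. No difference between the lines passed, with a smallest unadjusted p of 0.30 for *NKD1*, in 0 of 6 transcripts here and 0 of the 1992 listed for both. Transcripts listed for only UBE2B-/-1 or only UBE2B-/-2, such as that of *SP5*, were not in this comparison. It therefore cannot show how far those differ between the lines. UBE2B-/-2 minus UBE2B-/-1 had an interval from -1.10 to 0.34 for *NKD1* and from -0.47 to 0.92 for *SFRP5*. For *LEF1* it ran from -3.10 to 4.05, which leaves room for large differences.

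Markers of other cells moved in the same libraries. Of 5 stromal markers, *COL3A1* and *DCN* were called higher in both lines, and their listed transcripts summed to 9371 estimated counts in wild-type CMs, 95300 in UBE2B-/-1 and 248858 in UBE2B-/-2, on the scale of that fit. *TCF21*, 1 of 4 epicardial markers, went from 0.442 to 141 and 214 estimated counts on the same scale. Of 5 cardiomyocyte markers, *ACTN2*, *MYL7* and *TNNT2* were called lower in both, and the sum of their listed transcripts was 81661, 29454 and 24186. *GATA4*, 1 of 5 progenitor markers, was higher in both lines with a mean change of 1.65 (SE 0.28), and *CNN1*, 1 of 4 smooth muscle markers, was lower in both with -1.85 (SE 0.25). *SOX17*, 1 of 5 endoderm markers, and *PDGFRA* were called higher in UBE2B-/-1 and *KDR* in UBE2B-/-2. *COL1A1* and *LUM* were called higher in UBE2B-/-2 and *MYH6* lower. No iPSC, M, endothelial or neural marker was called in either line. The part of these cells in the *NKD1*, *AXIN2*, *SP5*, *LEF1*, *DKK1*, *SFRP2* and *SFRP5* changes was not tested.

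Of 95 other Wnt pathway genes, 25 were called from iPSC to M, 20 higher and 5 lower, against 2.87% of all tested transcripts. A gene counted here when any of its transcripts was called, so such counts cannot be set directly beside a share of transcripts. Among antagonists and feedback genes, 7 of 24 rose and 2 fell. *TNFRSF19*, a receptor and Wnt target, rose by 4.89 (SE 0.35), and *APCDD1*, a membrane inhibitor, by 5.67 (SE 0.84). *SHISA2*, which holds Frizzled in the endoplasmic reticulum, changed by -4.00 (SE 0.55). Of 10 Wnt-responsive streak genes, 6 rose and 0 fell, among them *CDX2* by 7.92 (SE 0.67) and *EOMES* by 7.88 (SE 0.92). Of ligands and their secretion factors, 3 of 25 rose, including *WLS*, which carries Wnt proteins to the surface, by 5.99 (SE 0.54).

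From M to CMes, 43 of the 95 were called, 28 higher and 15 lower, against 6.46% of all tested transcripts. Higher were 8 of 17 receptors and 8 of 25 ligand and secretion genes. *FZD4* rose by 2.83 (SE 0.14) and *WNT9B* by 4.18 (SE 0.48). Antagonists and feedback genes divided into 5 higher, such as *SHISA2* and *BAMBI*, a TGF-β pseudoreceptor, and 7 lower, such as *DACT1* by -2.12 (SE 0.19). From CMes to CP, 35 were called, 19 higher and 16 lower, against 6.43% of all tested transcripts. *CER1*, a secreted antagonist, changed by -8.70 (SE 0.47) there. From CP to CM, 40 were called, 15 higher, 23 lower and 2 in both directions, against 15.2% of all tested transcripts. *FZD4* then changed by -4.04 (SE 0.13) and *FZD7* by -3.34 (SE 0.22), while *FZD1* rose by 4.61 (SE 0.29).

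In the mutants, 16 of the 95 were called in UBE2B-/-1, 13 higher and 3 lower, and 18 in UBE2B-/-2, 14 higher and 4 lower. Of all tested transcripts, 3.89% were called in UBE2B-/-1 and 3.99% in UBE2B-/-2. In both lines, 9 of the genes were higher and 2 lower, against 2.43% of all tested transcripts called in the same direction. *SOSTDC1*, a secreted antagonist, had a mean change of 1.99 (SE 0.54) and *LRP5* of 1.07 (SE 0.23). *WNT9B* had 4.53 (SE 1.16). *CTNNB1*, which encodes β-catenin, was lower through ENST00000396183.7, by a mean of -1.25 (SE 0.19). *ROR1*, a receptor of noncanonical Wnt signaling, was lower through ENST00000545203.2, by -1.86 (SE 0.23). These transcripts need not stand for the whole gene, since from CP to CM both genes were called in both directions through different transcripts.

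The genes whose pattern was most like a peak at M were ranked by the smaller of their changes into and out of M, over the 3 stages from iPSC to CMes. Apart from the 10 genes, they were *WSCD1*, *SMARCA2*, *CDX1*, *GBX2* and *CDX2*. Their transcripts had 233, 190, 145, 91.3 and 131 estimated counts at M and less than 1 at both other stages, so their order depends on the pseudocount. Among the 711 transcripts that rose and then fell, *DKK4* ranked 3. The most abundant transcripts of *NKD1*, *AXIN2* and *SP5* ranked 66, 77 and 85. The transcripts ranked for *WSCD1*, *SMARCA2*, *CDX1*, *GBX2* and *CDX2* were particular ones and need not stand for the whole gene. *CDX2*, for example, was also listed through ENST00000381020.7, at 2.15 estimated counts in iPSCs and 643 at M.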

How the data were processed

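The data were 21 poly-A RNA libraries. After trimming, the authors estimated transcript abundance with Kallisto (hg38) and ran the Sleuth Wald test between groups. Their deposited tables give a p-value and q-value, the effect b, its standard error and the mean on the natural log scale (estimated counts plus 0.5), and variance scores, for transcripts with a q-value of at most 0.05. There are 0 columns of per-sample values.

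The p-values, q-values and standard errors were recomputed from these columns (Python 3.11.15, pandas 2.3.3, scipy 1.17.1), which also gave the number of transcripts tested. Natural-log effects were turned into log2 changes. A call needed a q-value up to 0.05 and b beyond 0.585 in either direction. Group means come from b and the overall mean, and tables were put on 1 scale through the stage they share (factors of 0.886 to 1.15). Transcripts were matched to GENCODE 44, 21 of 22. The steps were tested on simulated data. The genes and lists were chosen with earlier results of these data known. Named are all 10 genes, at most 2 genes per other list, direction and comparison by absolute z, 5 genes for likeness, and *UBE2B*. For each gene, the transcript with the highest mean speaks.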

Additional observations from a re-analysis of the deposited data

How the results depend on the processing

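No paired analysis was possible because the tables carry no value per library, and for the same reason no replicate could be left out. With a t distribution in place of the normal one, 0 genes were called in each of the 6 comparisons and 0 for the mean of both lines. The q-values were then upper limits, since unlisted transcripts were counted at a p of 1. With the residual variance of each transcript alone, the stage counts were 5 into M and 4 into CMes, with 1 in UBE2B-/-1 and 1 in UBE2B-/-2, lower limits of the same kind. At a q-value of at most 0.01, 4 genes were called in UBE2B-/-1. These settings keep the fitted change, so no direction could turn under them. With the transcript of smallest p speaking for the gene a direction could turn, and none did. A 1.5-fold limit on the natural-log scale, no limit on the effect and a mean of at least 10 estimated counts left every count of genes within 1.5 times. The last of these ended the calls of *DKK1* and *DKK4* from iPSC to M, where 8 genes became 6, and of *SP5* in UBE2B-/-1, where 7 became 6. Levels kept their median within the residual SD without the common scale or with the pseudocount left in. Depth per library is unknown, so low levels were not given limits of detection beyond the floor of 3 counts.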
